A study of Homo sapiens with 6 samples.

Results

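The genes described here are 10 genes of selective autophagy, taken as the rows of the gene table that carry their symbols, out of 63241 gene rows. They are the cargo receptors SQSTM1, OPTN, NBR1, CALCOCO2 and TAX1BP1, the ATG8 genes MAP1LC3B, GABARAP, GABARAPL1 and GABARAPL2, and the receptor kinase TBK1. Each symbol matched 1 row, and all 10 passed the filter of a mean of at least 1 TPM. RNA sequencing had been done on macrophages derived from THP-1, an established human monocytic leukaemia line, 24 h after transfection with an siRNA against DUSP6 (siDUSP6, labelled as a DUSP6 knockdown) or a negative control siRNA (siNC, labelled as WT), with 3 libraries in each group. DUSP6 is a phosphatase of the kinases ERK1 and ERK2, and the series title places the comparison in work on macrophage polarization in adenomyosis. The cells of both groups came from the same line, and no label calls the libraries separate cultures, so a p-value here measures the spread among these 6 samples, possibly a technical one.

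Selective autophagy removes chosen cargo, such as protein aggregates, damaged mitochondria or bacteria that have reached the cytosol. A receptor binds ubiquitin on the cargo with one domain and, through a short LC3-interacting motif, an ATG8 protein on the growing membrane. ATG8 proteins are cleaved, joined to a lipid and inserted into that membrane, and the kinase TBK1 phosphorylates several receptors and raises their binding. In macrophages the same receptors take part in defence against intracellular bacteria and in the control of inflammatory signalling.

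DUSP6 had 227, 218 and 222 TPM in the siDUSP6 libraries, against 359, 368 and 378 TPM in the siNC libraries (log2 fold change -0.73, SE 0.0267, limma adjusted p = 8.667e-05). For siDUSP6 replicate 1 alone its log2 fold change was -0.70 (limma adjusted p = 0.01605). The labelled treatment is an siRNA against DUSP7 for siDUSP6 replicate 2 and against DUSP8 for replicate 3, whereas their titles, library names and genotype name DUSP6. The log2 fold changes of the called autophagy genes named here are therefore also given with siDUSP6 replicate 1 alone. All 10 macrophage markers had a mean of at least 1 TPM and summed to 3948 to 4020 TPM in siDUSP6 and 4021 to 4121 TPM in siNC. Of 14 markers of other cell types, COL3A1, EPCAM, CD3D and MS4A1 were at 0 in every library. The rest without PECAM1, which leukocytes also express, summed to 8.04 to 9.08 TPM in siDUSP6 and 7.64 to 10.01 TPM in siNC. Of the macrophage markers 4 were lower in every siDUSP6 library than in any siNC library (LYZ, ITGAM, TYROBP and CSF1R) and 1 was higher. Of all tested genes 14.9% were lower and 10.2% higher in this way. The median log2 fold change over the list was -0.0445. At an unadjusted p under 0.05 there were 3 lower and 1 higher, where 11.2% and 8.03% of tested genes were so. CD14 was the one macrophage marker to pass the test, at 40.8 TPM in siDUSP6 and 29.9 TPM in siNC (limma adjusted p = 0.03332, called in 1 of the 6 fits with 1 library left out). The part of these markers in the results below was not tested.

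Of these genes 3 rose in the siDUSP6 libraries. OPTN rose by 31.1% in mean TPM, SQSTM1 by 10.6% and MAP1LC3B by 8.03%, and none fell; in bulk samples, fewer cells of a type and less RNA per cell cannot be told apart. These are 3 of 10 genes, where 2.37% of all 14602 tested genes were called higher, 1.49% lower and 3.86% in either direction, at a limma adjusted p under 0.05. Of the other 7, all but GABARAP had a higher mean in siDUSP6 without passing the test, so that 9 of 10 had a positive log2 fold change, where 42.1% of tested genes did. The libraries of the groups did not overlap for 8 genes that were higher in siDUSP6 and 1 that was lower, where 10.2% and 14.9% of all tested genes were so (25.1% in either direction). At an unadjusted p under 0.05 there were 9 higher and 1 lower, where 8.03% and 11.2% of tested genes were so (19.2% in either direction). The median log2 fold change was 0.14 over the 10 genes, 0.15 over the receptors and 0.12 over the ATG8 genes, while that of all tested genes was -0.0254. Of all calls, 61.3% were higher in siDUSP6, and 73.2% were after median-of-ratios scaling. The 10 genes averaged 31.77 TPM or more, while the shares of all tested genes include genes down to a mean of 1 TPM. In the fit of 10231 genes averaging at least 5 TPM, 410 were called higher and 315 lower. Shares among genes at the level of these 10 were not computed.

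**Figure D1:**
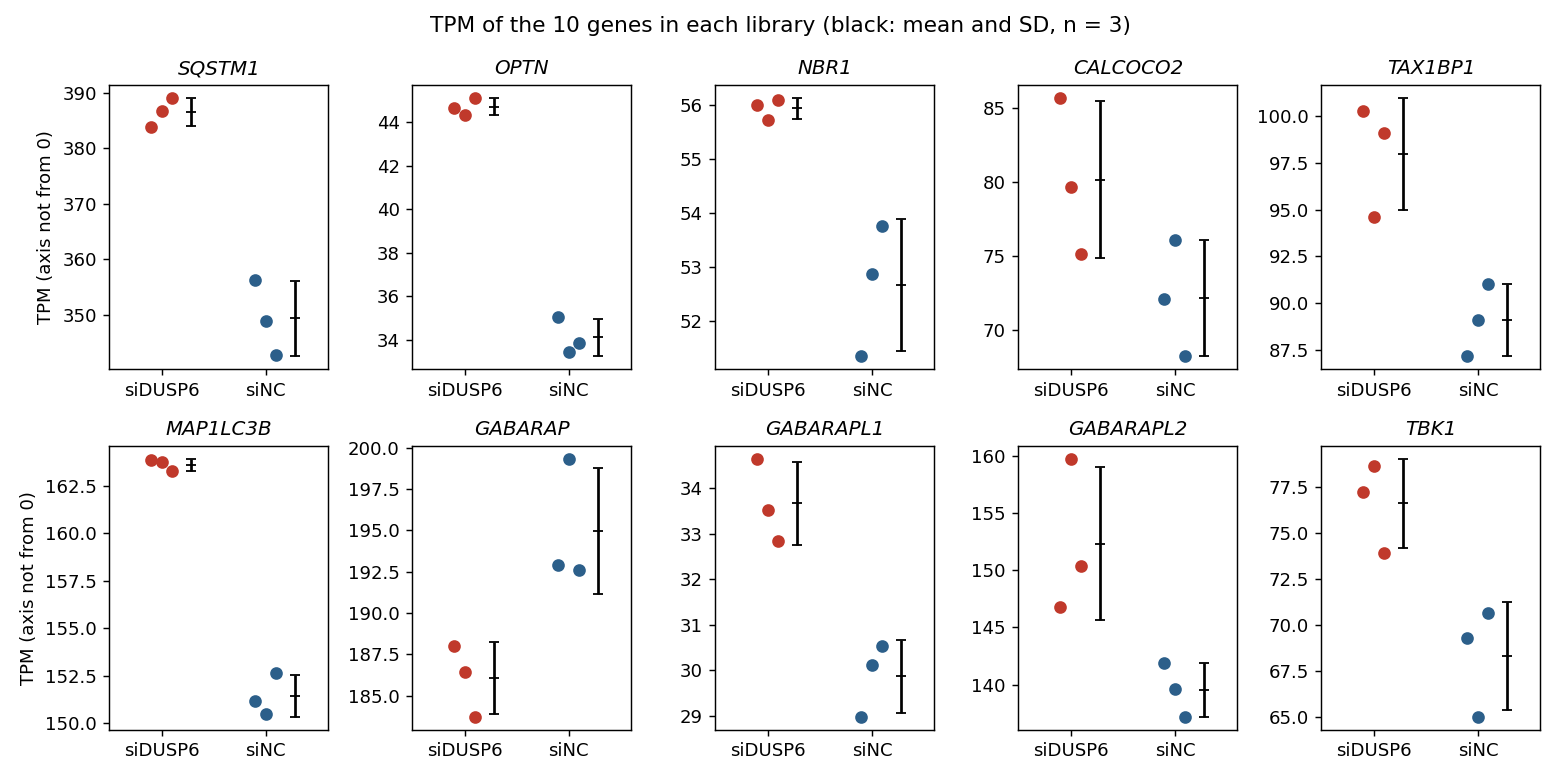
TPM of each gene in each library (points; vertical axes differ between panels and do not start at 0), with siDUSP6 left and siNC right, and the mean and SD of 3 libraries in black. CALCOCO2 is the panel in which the groups overlap, and GABARAP the panel in which the siDUSP6 libraries lie below the siNC libraries.

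OPTN encodes optineurin, a receptor for ubiquitinated mitochondria and bacteria and a substrate of TBK1. It (ENSG00000123240) lies on the plus strand of chromosome 10 from 13099449 to 13138308 in GRCh38 (GENCODE release 29). It had 44.65, 44.35 and 45.12 TPM in siDUSP6, against 35.07, 33.43 and 33.83 TPM in siNC. The siDUSP6 libraries lay close together and all above the highest siNC library. The mean was 44.7 ± 0.388 TPM in siDUSP6 and 34.1 ± 0.855 TPM in siNC (SD, n = 3 each), with a log2 fold change of 0.38 on the log2(TPM + 1) scale (SE 0.0351, 95% interval 0.297 to 0.465, limma adjusted p = 0.002846). That interval lay above those of the other 9 genes, whose highest upper bound was 0.291, and OPTN changed by more than 93.9% of tested genes. The call held with each library left out in turn (limma adjusted p 0.01145 to 0.02028). It was lost with siDUSP6 replicate 1 alone, where the log2 fold change was 0.38 and the adjusted p 0.157, and 0 of the 10 genes were called. OPTN overlaps SNRPGP5 over 220 bases and CCDC3 over 204 bases on the opposite strand, and the sources used here do not say whether counting used strand. SNRPGP5 averaged 0.0 TPM in siDUSP6 and 2.19 TPM in siNC, and CCDC3 0.0567 TPM in both groups.

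The promoter window of OPTN, from 250 bases before to 50 bases after its RefSeq start, is shown because it carries the strongest rise of the 10 and a match to the NF-kB site (capitals), at chr10:13099913-13100212 on the plus strand of GRCh38.p14.
OPTN: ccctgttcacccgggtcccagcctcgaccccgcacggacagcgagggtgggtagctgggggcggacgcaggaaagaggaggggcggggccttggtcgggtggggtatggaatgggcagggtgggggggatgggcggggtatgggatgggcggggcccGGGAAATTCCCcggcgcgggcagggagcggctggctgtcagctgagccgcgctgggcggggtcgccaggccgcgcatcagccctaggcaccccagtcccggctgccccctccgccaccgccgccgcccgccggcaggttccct

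SQSTM1 encodes p62, which binds ubiquitinated proteins, gathers them into condensates and also binds KEAP1, the inhibitor of the antioxidant factor NRF2. The gene (ENSG00000161011) lies on the plus strand of chromosome 5 from 179806398 to 179838078. It had 383.9, 386.7 and 389.0 TPM in siDUSP6, against 356.3, 349.0 and 342.8 TPM in siNC. Every siDUSP6 library lay above every siNC library. The mean was 386.5 ± 2.54 TPM in siDUSP6 and 349.4 ± 6.76 TPM in siNC (SD, n = 3 each), with a log2 fold change of 0.15 (SE 0.0203, 95% interval 0.0973 to 0.194, limma adjusted p = 0.01452). SQSTM1 rose by the largest amount in TPM, 37.2, and by less than OPTN as a fold. The call was lost without any 1 of siDUSP6 replicates 1, 2 and 3 or siNC replicate 2 (adjusted p up to 0.06254), and without the variance trend (0.1352). With siDUSP6 replicate 1 alone the log2 fold change was 0.14 (limma adjusted p = 0.2608). SQSTM1 overlaps MRNIP over 2946 bases and MGAT4B over 555 bases on the opposite strand. MRNIP averaged 12.6 TPM in siDUSP6 and 12.7 TPM in siNC, and MGAT4B 91.0 TPM in siDUSP6 and 89.6 TPM in siNC.

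The remaining receptors were higher on average in siDUSP6 without passing the test. TAX1BP1 (ENSG00000106052, chromosome 7, 27739331 to 27844564, plus strand), a receptor that also helps the enzyme A20 to restrain NF-kB, had 100.2, 94.6 and 99.1 TPM in siDUSP6, against 87.2, 89.1 and 91.0 TPM in siNC, and the groups did not overlap. Its log2 fold change was 0.14 (95% interval 0.0561 to 0.214, limma adjusted p = 0.08235). JAZF1, which overlaps it over 13992 bases on the opposite strand, averaged 3.16 TPM in siDUSP6 and 3.91 TPM in siNC. NBR1 (ENSG00000188554, chromosome 17, 43170481 to 43211689, plus strand), which works with p62 on protein aggregates, had 56.0, 55.7 and 56.1 TPM in siDUSP6, against 51.4, 52.9 and 53.8 TPM in siNC. Its groups did not overlap either, though the gap was small (log2 fold change 0.0856, 95% interval 0.0107 to 0.16, limma adjusted p = 0.2047). CALCOCO2 (ENSG00000136436, chromosome 17, 48830988 to 48866522, plus strand), also called NDP52, recognises damaged vacuoles of invading bacteria. It had 85.7, 79.7 and 75.1 TPM in siDUSP6, against 72.1, 76.1 and 68.3 TPM in siNC. Here the lowest siDUSP6 library lay below the highest siNC library (log2 fold change 0.15, 95% interval 0.00739 to 0.291, limma adjusted p = 0.2387). CALCOCO2 had the widest spread of the 10 genes, with a coefficient of variation of 6.61% in siDUSP6 and 5.43% in siNC, and its log2 fold change, as large as that of SQSTM1, did not pass.

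**Figure D2:**
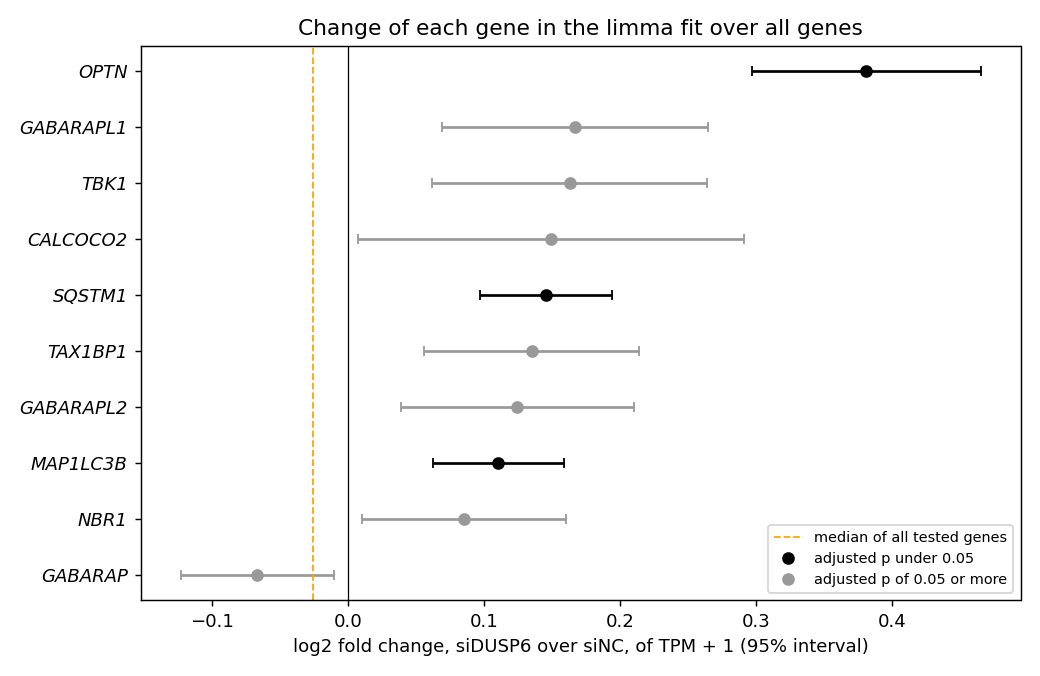
Log2 fold change of each gene, siDUSP6 over siNC, with its 95% interval from the limma fit over all genes. Black points passed an adjusted p of 0.05, grey points did not, and the dashed line marks the median of all tested genes at -0.0254. OPTN lies to the right of the other 9 and GABARAP is the one gene left of 0.

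MAP1LC3B encodes LC3B, the ATG8 protein most used as a marker of autophagosomes. It (ENSG00000140941) lies on the plus strand of chromosome 16 from 87383995 to 87404779. It had 163.8, 163.7 and 163.2 TPM in siDUSP6, against 151.2, 150.5 and 152.6 TPM in siNC. The groups were well apart for their spread, with coefficients of variation of 0.194% in siDUSP6 and 0.721% in siNC. The mean was 163.6 ± 0.317 TPM in siDUSP6 and 151.4 ± 1.09 TPM in siNC (SD, n = 3 each), with a log2 fold change of 0.11 (SE 0.0203, 95% interval 0.0623 to 0.159, limma adjusted p = 0.03637). The call was lost with any 1 library left out (adjusted p 0.09198 to 0.122) and without the variance trend (0.1826), and the log2 fold change stayed between 0.106 and 0.134 over 15 alternatives. With siDUSP6 replicate 1 alone it was 0.11 (limma adjusted p = 0.2908). MAP1LC3B and MAP1LC3B2 are near-identical, and MAP1LC3B overlaps FBXO31 over 8148 bases on the opposite strand. Reads that the counting could split therefore make the MAP1LC3B value uncertain. MAP1LC3B2 averaged 4.58 TPM in siDUSP6 and 4.51 TPM in siNC, and FBXO31 8.04 TPM in siDUSP6 and 8.91 TPM in siNC.

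The windows of the other called genes are shown to set them beside that of OPTN: SQSTM1 at chr5:179820655-179820954 and MAP1LC3B at chr16:87392086-87392385, both on the plus strand of GRCh38.p14. Capitals mark a match to the core of the antioxidant response element. The SQSTM1 window does not hold one, and sequence beyond the promoter windows was not searched.
SQSTM1: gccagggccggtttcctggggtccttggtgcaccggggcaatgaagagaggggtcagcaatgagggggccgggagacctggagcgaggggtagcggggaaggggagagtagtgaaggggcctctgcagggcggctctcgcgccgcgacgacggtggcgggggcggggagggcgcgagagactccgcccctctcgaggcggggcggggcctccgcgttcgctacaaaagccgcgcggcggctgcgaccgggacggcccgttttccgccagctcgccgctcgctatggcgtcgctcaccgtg
MAP1LC3B: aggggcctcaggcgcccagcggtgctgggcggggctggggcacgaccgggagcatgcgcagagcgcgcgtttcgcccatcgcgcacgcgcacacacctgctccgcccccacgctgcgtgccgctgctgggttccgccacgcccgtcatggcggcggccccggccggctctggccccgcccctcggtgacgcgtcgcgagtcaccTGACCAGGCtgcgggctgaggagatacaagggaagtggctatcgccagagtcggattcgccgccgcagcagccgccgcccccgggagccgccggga

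The GABARAP branch of the ATG8 family, which acts in the later steps of autophagosome formation and binds the initiating kinase complex, had means on both sides of the control. GABARAP itself (ENSG00000170296, chromosome 17, 7240014 to 7242770, minus strand) had 188.0, 186.5 and 183.7 TPM in siDUSP6, against 192.9, 199.3 and 192.6 TPM in siNC. All siDUSP6 libraries lay below all siNC libraries, by a small margin. The log2 fold change was -0.0668 (95% interval -0.123 to -0.0105, unadjusted p = 0.02653), short of the threshold (limma adjusted p = 0.1917), and it ranged from -0.0772 to -0.0436 over 15 alternatives. Another annotated protein-coding gene overlaps GABARAP over 2344 bases on the same strand, where stranded counting could not part their reads, and is listed at 0.0 TPM in both groups. GABARAPL1 (ENSG00000139112, chromosome 12, 10212458 to 10223130, plus strand), a gene that FOXO factors are known to induce, had 34.65, 33.52 and 32.83 TPM in siDUSP6, against 28.98, 30.11 and 30.53 TPM in siNC. The groups did not overlap (log2 fold change 0.17, 95% interval 0.0693 to 0.265, limma adjusted p = 0.08235). GABARAPL2 (ENSG00000034713, chromosome 16, 75566351 to 75577881, plus strand), also called GATE-16, had 146.8, 159.8 and 150.4 TPM in siDUSP6, against 141.9, 139.6 and 137.2 TPM in siNC. Its siDUSP6 libraries were all higher, with replicate 2 well above the others (log2 fold change 0.12, 95% interval 0.0388 to 0.21, limma adjusted p = 0.1223).

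TBK1 (ENSG00000183735, chromosome 12, 64451880 to 64502108, plus strand), a kinase of interferon induction as well as of the receptors, had 77.2, 78.7 and 73.9 TPM in siDUSP6, against 69.3, 65.0 and 70.7 TPM in siNC. The groups did not overlap. The mean was 76.6 ± 2.42 TPM in siDUSP6 and 68.3 ± 2.94 TPM in siNC (SD, n = 3 each), with a log2 fold change of 0.16 (SE 0.0424, 95% interval 0.062 to 0.264) and a limma adjusted p of 0.09485, above the threshold. For 3 libraries against 3 the smallest p that exact permutation (two-sided) allows is 0.1, so these p-values rest on limma's model.

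**Figure D3:**
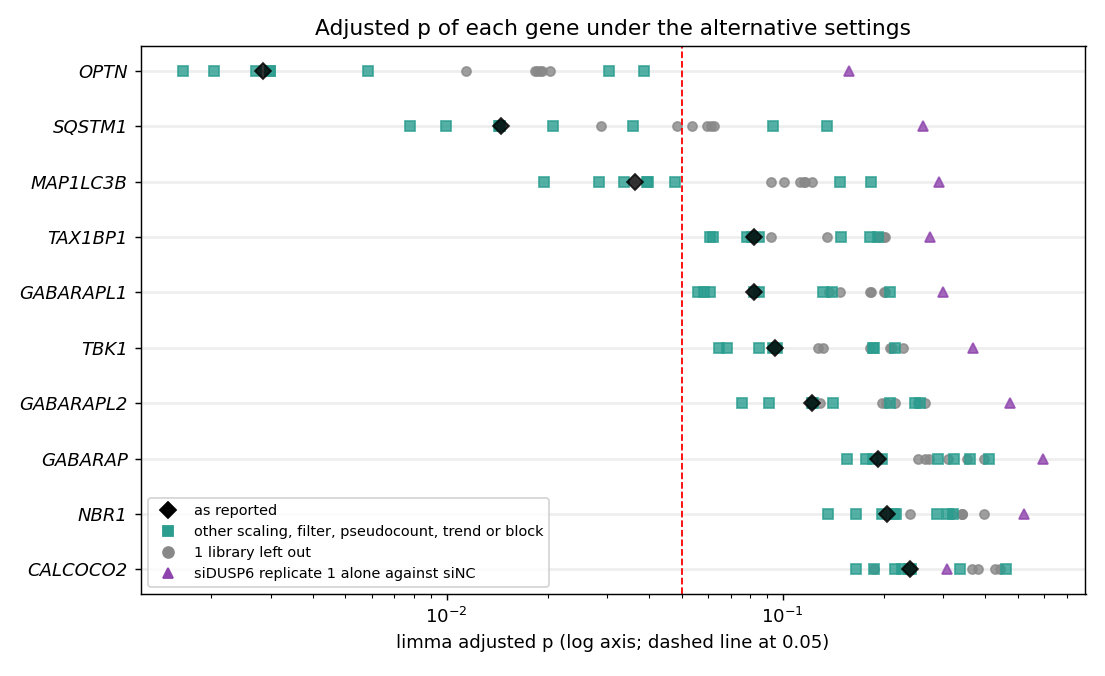
Limma adjusted p of each gene (log axis) as reported (diamonds), under other scaling, filters, pseudocounts, variance trend or a replicate block (squares), with 1 library left out (circles) and with siDUSP6 replicate 1 alone against siNC (triangles). The dashed line is at 0.05. OPTN lies left of it in 14 of 15 alternatives, SQSTM1 in 8 and MAP1LC3B in 6, and the other 7 genes in 0.

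TPM are scaled for transcript length, so levels can be ordered between genes. The order was the same in both groups, from SQSTM1 through GABARAP, MAP1LC3B, GABARAPL2, TAX1BP1, CALCOCO2, TBK1, NBR1 and OPTN to GABARAPL1. SQSTM1 averaged 11.5 times the level of GABARAPL1 in siDUSP6 and 11.7 times in siNC, and stood above 97.3% of tested genes. Ranges over libraries overlapped between neighbours in 1 place in each group, between CALCOCO2 and TBK1. Within libraries CALCOCO2 was higher than TBK1 in every library but siNC replicate 3 (68.25 against 70.68 TPM). GABARAPL1 was the lowest of the 10 with a mean of 31.8 TPM over the 6 libraries.

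The 5 receptors summed to 670.5, 661.1 and 664.4 TPM in siDUSP6, against 602.1, 600.5 and 589.7 TPM in siNC. The 4 ATG8 genes summed to 533.3, 543.5 and 530.2 TPM in siDUSP6, against 515.0, 519.5 and 512.9 TPM in siNC. Both sums were higher in every siDUSP6 library than in any siNC library, and the receptor sum stood at 1.24 ± 0.0225 times the ATG8 sum in siDUSP6 and 1.16 ± 0.00996 times in siNC (SD, n = 3 each). Within the receptor sum OPTN held 6.72 ± 0.0666% in siDUSP6 and 5.71 ± 0.131% in siNC, while SQSTM1 held 58.1 ± 0.731% in siDUSP6 and 58.5 ± 0.611% in siNC. Within the ATG8 sum GABARAP held 34.7 ± 0.479% in siDUSP6 and 37.8 ± 0.502% in siNC, and MAP1LC3B 30.5 ± 0.365% in siDUSP6 and 29.4 ± 0.395% in siNC. The ratio of GABARAP to MAP1LC3B was 1.15, 1.14 and 1.13 in the siDUSP6 libraries, against 1.28, 1.32 and 1.26 in the siNC libraries. The ratio does not depend on library scaling. Its groups had to lie apart, because GABARAP was lower and MAP1LC3B higher in every siDUSP6 library than in any siNC library. It is thus no further result beside the values of the 2 genes. The sums and shares are descriptions and were not tested.

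**Figure D4:**
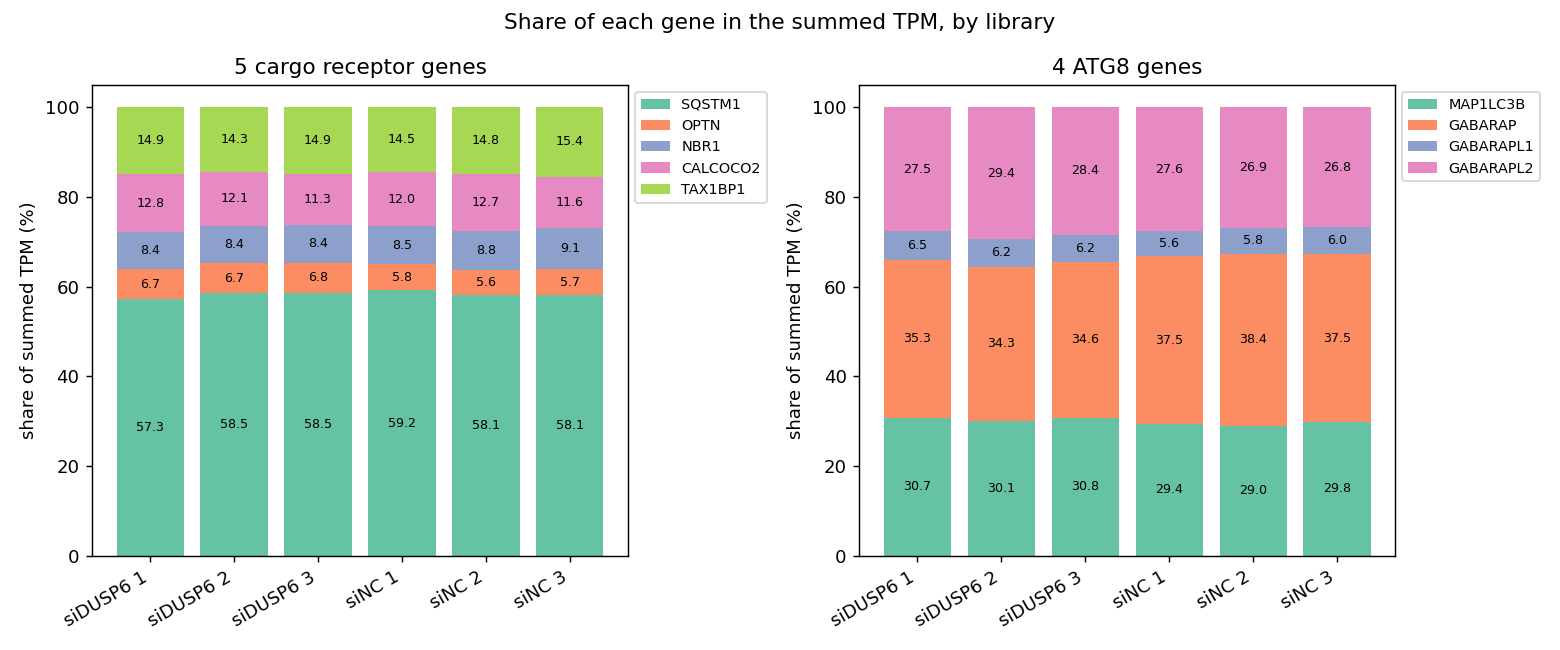
Share of each gene, in percent, of the summed TPM of the 5 receptors (left) and of the 4 ATG8 genes (right), for each siDUSP6 library and then each siNC library. The OPTN segment is 6.7 to 6.8% in siDUSP6 and 5.6 to 5.8% in siNC, and the GABARAP segment 34.3 to 35.3% in siDUSP6 and 37.5 to 38.4% in siNC.

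For all 10 genes a RefSeq promoter window of 300 bases was searched on both strands for 6 motifs, taking for the 4 genes with several starts the one nearest to the principal GENCODE transcript. The NF-kB site was matched in OPTN and GABARAPL2, and is held by 11.3% of 35116 windows of all genes. In OPTN the matches on the plus and the minus strand overlap in a single stretch that begins 93 bases before the start. The antioxidant response element core TGACNNNGC was matched in CALCOCO2 and MAP1LC3B (13.3% of windows), in MAP1LC3B from 46 bases before the start. CACGTG, the core of the element bound by TFEB, was matched in TBK1 (7.26% of windows). The ETS core CCGGAA was matched in GABARAPL2 and TBK1 (17.2% of windows). The matches depend on the window taken: another SQSTM1 window, at an earlier start, held 2 matches to the ETS core. The starts of the MAP1LC3B and GABARAP windows lay 536 and 321 bases from that of the principal transcript. The interferon-stimulated response element core, GAAA then any 2 bases then GAAA (3.57% of windows) and the AP-1 site TGANTCA (7.71% of windows) were matched in 0 of the 10. A match describes the letters of the window and not the binding of a factor.

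The other genes of the pathway were taken from 7 lists of 89 genes, of which 85 were tested. Of these 5 rose and 2 fell, or 5.88% and 2.35%, beside 2.37% and 1.49% of all tested genes, and their median log2 fold change was 0.0427. Among 19 tested further cargo receptors 2 rose and 0 fell. TRIM5, a restriction factor of retroviral capsids that also binds ATG8 proteins, rose to 30.3 ± 0.637 TPM in siDUSP6, against 23.8 ± 0.79 TPM in siNC (log2 fold change 0.33, limma adjusted p = 0.01063). NCOA4, the receptor that delivers ferritin to lysosomes, rose to 116.5 ± 2.74 TPM in siDUSP6, against 105.5 ± 0.319 TPM in siNC (log2 fold change 0.14, limma adjusted p = 0.03944). Neither of the 2 tested other ATG8 genes passed. At an unadjusted p under 0.05 there was 1 higher, MAP1LC3A, where 8.03% of tested genes were so. MAP1LC3A averaged 18.5 ± 1.23 TPM in siDUSP6 and 15.3 ± 0.977 TPM in siNC (limma adjusted p = 0.1016). MAP1LC3B2 had a limma adjusted p of 0.9404.

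Genes that join ATG8 proteins to lipid or cleave them had a median log2 fold change of -0.0544. Of these 11 genes, 1 was called lower and 0 higher. Beside this and the next list counts, 1.49% of all tested genes were called lower and 2.37% higher. The one that fell was ATG3, the enzyme that transfers ATG8 proteins to lipid, with 58.2, 60.2 and 62.8 TPM in siDUSP6, against 69.7, 70.3 and 72.6 TPM in siNC (log2 fold change -0.23, SE 0.0379, limma adjusted p = 0.02687). Of 21 initiation and membrane growth genes 1 rose, WDR45, a lipid-binding protein of the phagophore, to 40.8 ± 1.36 TPM in siDUSP6, against 34.5 ± 1.06 TPM in siNC (limma adjusted p = 0.0349). Of 11 fusion genes 1 fell, RAB7A, the small GTPase of late endosomes, to 297.4 ± 4.68 TPM in siDUSP6, against 334.9 ± 1.68 TPM in siNC (log2 fold change -0.17, limma adjusted p = 0.006479). When each library was left out in turn, the RAB7A call held in all 6 fits, that of TRIM5 in 4 (lost without siDUSP6 replicate 1 or siNC replicate 1, limma adjusted p 0.0504 and 0.05132) and that of ATG3 in 1 (kept without siDUSP6 replicate 3). Those of NCOA4 and WDR45 held in 0, with adjusted p up to 0.1246 and 0.1125. Without the variance trend the TRIM5 call held (limma adjusted p = 0.04371), and those of RAB7A (0.1022), ATG3, NCOA4 and WDR45 were lost. With the replicate block the calls of all 5 genes were lost (limma adjusted p = 0.0676 for RAB7A and 0.07679 for TRIM5). With siDUSP6 replicate 1 alone none of these 5 genes passed. The log2 fold change was then 0.37 for TRIM5, 0.10 for NCOA4, -0.28 for ATG3, 0.24 for WDR45 and -0.15 for RAB7A (limma adjusted p 0.1775 to 0.341).

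None of 11 adaptors and substrates of TBK1 passed the limma test. At an unadjusted p under 0.05 there were 3 higher and 1 lower, where 8.03% and 11.2% of tested genes were so. TANK, a TBK1 adaptor, averaged 156.0 ± 7.53 TPM in siDUSP6 and 137.8 ± 2.46 TPM in siNC (limma adjusted p = 0.05989). It passed in 2 of 15 alternatives, the filter of 5 TPM (limma adjusted p = 0.04091) and median-of-ratios scaling (0.04016). IKBKE, the kinase most like TBK1, averaged 40.3 ± 0.505 TPM in siDUSP6 and 36.8 ± 0.899 TPM in siNC (limma adjusted p = 0.1126). Beside 2.37% and 1.49% of all tested genes, 2 of 10 regulators known to act on receptor or lysosomal genes rose and 0 fell. Of these, NFE2L2, which encodes NRF2, rose to 129.1 ± 1.43 TPM in siDUSP6, against 115.1 ± 2.48 TPM in siNC (log2 fold change 0.16, limma adjusted p = 0.0235), a call lost with any 1 library left out (limma adjusted p 0.05308 to 0.08394). With siDUSP6 replicate 1 alone the log2 fold change of NFE2L2 was 0.15 (limma adjusted p = 0.2882).

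**Figure D5:**
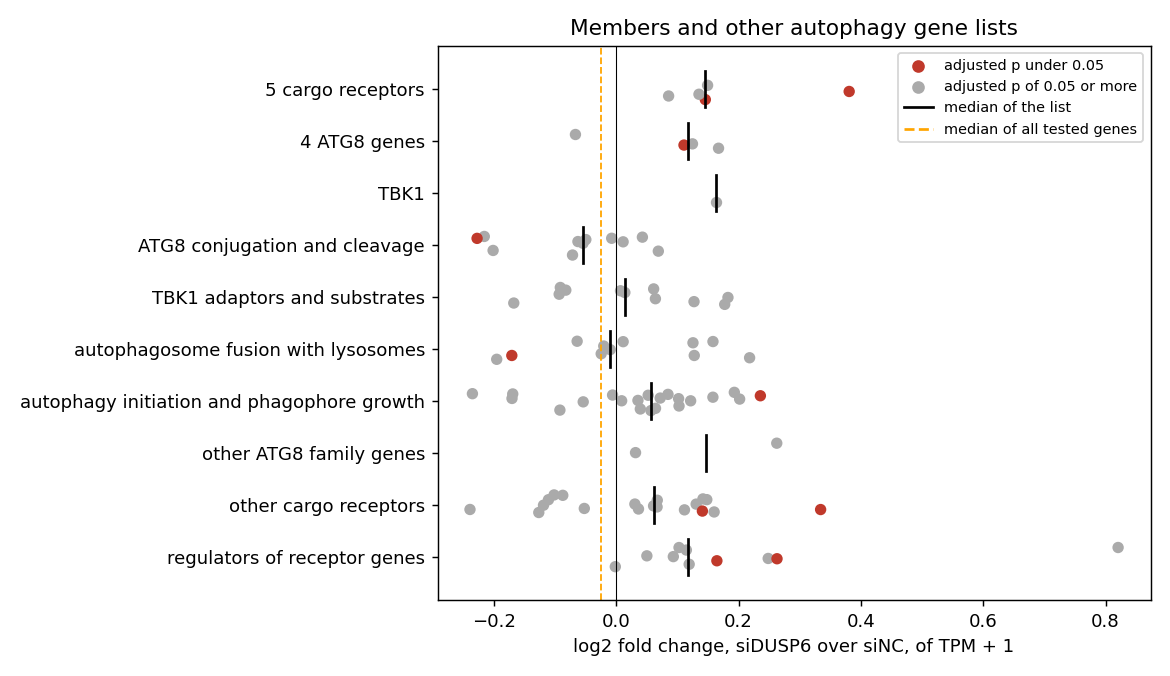
Log2 fold change, siDUSP6 over siNC, of each tested gene (points) of the receptors, the ATG8 genes, TBK1 and 7 other autophagy lists, with the list median as a black bar and the median of all tested genes as a dashed line. Red points passed an adjusted p of 0.05. The point at 0.82 in the lowest list is IRF1, which did not pass (adjusted p = 0.4603).

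Over 10230 other genes averaging 5 TPM or more, the profiles closest to that of OPTN across the 6 libraries were those of NCF1, CCL20 and GNG11. Likeness was the root mean square distance between log2(TPM + 1) values, each centred on the mean of its gene, and was 0.0168 for NCF1, 0.0183 for CCL20 and 0.0263 for GNG11. NCF1 encodes a subunit of the phagocyte NADPH oxidase and has near-identical copies, so its value is uncertain. It averaged 282.6 ± 3.48 TPM in siDUSP6 and 220.5 ± 5.67 TPM in siNC. CCL20, a chemokine, averaged 2485 ± 39.2 TPM in siDUSP6 and 1889 ± 18.0 TPM in siNC. GNG11, a G protein gamma subunit, averaged 35.4 ± 0.337 TPM in siDUSP6 and 26.6 ± 1.23 TPM in siNC.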

How the data were processed

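Total RNA went into libraries of a stranded mRNA kit, per the labels. The authors deposited gene-level TPM for the 6 libraries in 1 table. Named in the submitters' processing notes are GRCh38 and the tools HISAT2, StringTie and fastp. Their versions, the annotation release and any use of strand were not given in the sources used here. TPM are shares of each library's transcripts and keep no depth, so the depth is unknown and no counting interval is given. After 21 rows with no gene ID were left out, 63241 gene rows remained. Groups came from the sample titles.

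Values were analysed as log2(TPM + 1), with a pseudocount of 1, by limma 3.58.1 under R 4.3.3, where group was the one term and the prior variance followed a trend. Genes averaging 1 TPM or more over 6 libraries entered, p-values were two-sided with Benjamini-Hochberg adjustment over all 14602 tested genes, and calls were made at 0.05. Fold changes understate the change of low genes. The fit was also run on simulated data, drawn as independent normal values with the variances that limma had fitted. Such data cannot show how well the model holds for these libraries.

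The 10 genes and the lists were chosen with earlier results of these data known. Named were the 10 genes, DUSP6, up to 4 called genes with the largest change in each list (or the 2 with the smallest p) and the 3 profiles closest to OPTN; CD14, IRF1 and the overlapping genes were named after their values were seen. The values of 1 called regulator are not reported here. Promoter sequences are from RefSeq (GRCh38.p14) and coordinates of genes from GENCODE 29. The alternatives tried were median-of-ratios and quantile scaling, a pseudocount of 0.1 or 5, the filter dropped or raised to 5 TPM, no variance trend, the replicate number as a block and each library left out in turn. The fit with siDUSP6 replicate 1 alone, which assumes that this library varies like the siNC libraries, and the order of levels without 1 library were added after seeing the data.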

Additional observations from a re-analysis of the deposited data

How the results depend on the processing

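None of the 10 genes changed direction under any of 15 alternatives, and none of the other 7 passed under any. The count of called genes among the 10 was 3 under both other pseudocounts, both other filters and both other scalings, 1 without the variance trend, 1 with the replicate block, 1 to 2 with 1 library left out, and 0 with siDUSP6 replicate 1 alone, a fit of 1 library against 3. OPTN is the gene that remained called in all of these but the last, with adjusted p = 0.0305 without the variance trend. The libraries showed no clear pairing by replicate number. Deviations of same-numbered libraries correlated at 0.0252, -0.0365 and 0.048. Of the siDUSP6 libraries, replicates 1 and 3 correlated best with their own number and replicate 2 did not. Correlations this small cannot exclude a pairing. The block lowered the calls over all genes to 121 from 564 and left OPTN called (adjusted p = 0.03876). The filter of 5 TPM raised the calls over all genes to 725, and median-of-ratios scaling raised them to 594. Calls over all genes were 360 with no filter, 124 without the variance trend, 222 to 266 with 1 library left out and 49 with siDUSP6 replicate 1 alone. Calls among the other pathway genes, 7 as reported, were 4 with no filter, 2 without the trend, 1 with the block, 2 to 4 with 1 library left out and 0 with siDUSP6 replicate 1 alone. The filter of 5 TPM raised the calls among the other pathway genes to 10, and median-of-ratios scaling raised them to 8. After median-of-ratios scaling the difference between groups, siDUSP6 minus siNC, was 78.1 in place of 67.9 TPM for the receptor sum. For the ATG8 sum it was 28.4 in place of 19.8 TPM. MAP1LC3B2, which did not pass, changed sign without siDUSP6 replicate 3 (-0.0346), siNC replicate 1 (-0.064) and siNC replicate 2 (-0.0258), and had its highest log2 fold change without siNC replicate 3 (0.184). The causes were not tested. Because TPM keep no counts, the precision that depth gives could not be set.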

Other observations

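IRF1, an interferon-induced transcription factor in the list of regulators, had 32.63, 141.12 and 35.08 TPM in siDUSP6 replicates 1, 2 and 3, against 34.11, 28.18 and 29.56 TPM in siNC replicates 1, 2 and 3. The value of siDUSP6 replicate 2 stands apart from the other 5, and IRF1 did not pass the test (log2 fold change 0.82, limma adjusted p = 0.4603). The same library had the highest values of GABARAPL2 (159.76 TPM), TANK (164.38 TPM) and TBK1 (78.65 TPM). Its TAX1BP1 value, 94.6 TPM, was the lowest of the siDUSP6 libraries. Its values of OPTN and SQSTM1 were close to those of the other siDUSP6 libraries.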
